A study of Mus musculus with 2 samples.

Results

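Choroid plexus epithelial cells were described in the control library of a mouse brain single-cell RNA-seq study, where 376 of 8068 kept cells (4.66%, exact 95% interval 4.21 to 5.14) met a marker rule. A kept cell had at least 1000 UMIs, at least 500 genes and at most 10% of its UMIs from mitochondrial genes, a UMI being 1 tagged RNA molecule. A choroid plexus cell had a UMI of at least 3 of 7 genes (Folr1, Kl, Kcnj13, Prlr, Clic6, Sostdc1 and Kcne2) and of at most 2 of 4 ependymal genes (Ccdc153, Tmem212, Sntn and Fam183b). Ependymal cells, with at least 3 of those 4 genes and at most 2 of the 7, numbered 209, another 62 cells carried at least 3 genes of both sets, and 7421 were all other cells. Both libraries together held 13466 kept cells.

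The Plexin-B2_cKO host carried Cx3cr1 CreER/+ and Plxnb2 fl/fl, and the control host Cx3cr1 CreER/+ and Plxnb2 fl/+, so the control is a heterozygote that also carries the Cre and 1 floxed allele. Both hosts were C57BL/6 mice that received the mouse glioblastoma line KR158 by intracranial injection and tamoxifen at 100 mg/kg from 3 days before it, and tissue was taken at 8 weeks. CreER sits in the Cx3cr1 locus, which is active in microglia and other myeloid cells and not a choroid plexus epithelial gene. Tissue within about 1 mm of the injection site was dissociated with papain and cleared of debris on Percoll, with no sort described, and 1 library was made per genotype. The same rule found 3 cells among 5398 kept cells of the Plexin-B2_cKO library (0.0556%, interval 0.0115 to 0.162), so the results below come from the control library alone and have no replicate. Genotype, animal and dissected piece cannot be told apart in that difference, and ependymal cells by the same rule numbered 89 in the Plexin-B2_cKO library and 209 in the control library. The 3 cells had 24.6%, 26.6% and 27.7% of their UMIs from Ttr. The libraries held 63785513 UMIs (Plexin-B2_cKO) and 64756949 UMIs (control), and the control file listed 10942 barcodes of at least 500 UMIs each.

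The choroid plexus is a sheet of cuboidal epithelium over leaky capillaries in the brain ventricles. Its epithelial cells are joined by tight junctions, secrete cerebrospinal fluid by moving sodium, chloride, bicarbonate and water across the cell, and release carriers such as transthyretin. Ependymal cells line the ventricle walls, share a developmental origin with this epithelium and beat tufts of motile cilia.

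The 7 genes of the rule are a description of how the cells were chosen, and their levels are given as UMIs per 1000000 UMIs of the class total (CPM), with an exact Poisson 95% interval. Because 3′ UMI counts tag each molecule once, no scaling by gene length was applied. Kl, which encodes klotho, stood at 1218 CPM (1187 to 1249) in choroid plexus cells, 1.31 in ependymal cells and 5.48 in all other cells. Sostdc1, a secreted antagonist of BMP and Wnt signals, stood at 1038, 31.8 and 4.06 CPM in choroid plexus, ependymal and all other cells, and Prlr, the prolactin receptor, at 981, 1.05 and 4.15. Folr1, the folate receptor that carries folate into cerebrospinal fluid, stood at 935, 193 and 4.08 CPM in the same order. The chloride channel family member Clic6 had 524, 34.4 and 4.58 CPM, the potassium channel Kcnj13 had 509, 1.31 and 2.68, and the potassium channel subunit Kcne2 had 333, 0 and 1.80. Folr1, Clic6 and Sostdc1 had UMIs in the ependymal class as well, while Kl, Kcnj13, Prlr and Kcne2 were near 0 there. Ependymal cells could carry at most 2 of the 7 genes, so these levels are partly set by the rule. Kcne2 (chr16:92292389-92298129) and Clic6 (chr16:92485736-92541243) both lie on the plus strand of chromosome 16 in GRCm38.

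The label was checked with Ttr, which the rule did not use. Ttr (chr18:20665280-20674321) encodes transthyretin, the carrier of thyroxine and of retinol-binding protein that this epithelium secretes. It supplied 24.5% of all UMIs of the choroid plexus cells, at 244979 CPM (244543 to 245415), against 505 CPM in ependymal cells and 1243 CPM in all other cells. Per cell the Ttr share ran from 0.0393% to 47.9% with quartiles of 15.7%, 24% and 32.3%. Of the 376 cells, 331 had at least 10% Ttr and 4 had under 1%, while 42 of the 7421 other cells and 0 of the 209 ependymal cells reached 1%. The 0 of 209 allows a share of up to 1.44%.

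The median Ttr share stepped at the threshold of the rule. The 27 cells with exactly 3 of the 7 genes had a median Ttr share of 16.4%, and 23 of them reached 1%. Of the 76 cells just outside, with 2 of the 7 genes, 14 reached 1% and the median was 0.139%. The 172 cells with all 7 genes had a median Ttr share of 25.8% and a median of 12080 UMIs, against 2907 UMIs in those with 3 genes. On the ependymal side, 346, 28 and 2 members carried 0, 1 and 2 of the 4 ependymal genes, and the 2 cells just outside with 3 of them had a median Ttr share of 12%.

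**Figure D1:**
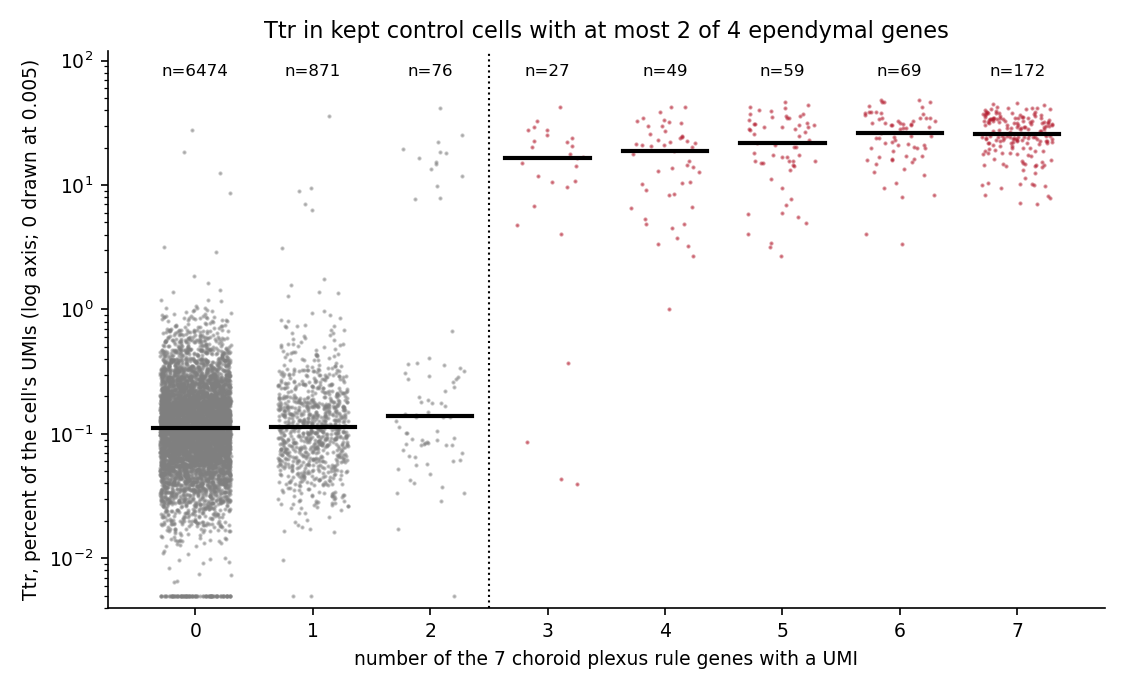
Ttr as a percentage of each cell's UMIs (log axis) against the number of the 7 rule genes with a UMI, in kept control cells with at most 2 ependymal genes; each point is a cell, black bars are medians and the dotted line is the rule's threshold. Medians are 0.112% at 0 genes and 0.139% at 2 genes, then 16.4% at 3 genes and 25.8% at 7 genes.

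A wider set of choroid plexus markers outside the rule was listed. Their summed level, Ttr included, was 266488 CPM in choroid plexus cells, 2755 in ependymal cells and 1760 in all other cells. Of 24 listed genes, 22 were measured, meaning at least 20 CPM in either class compared, and 22 of 22 were at least 4-fold higher in choroid plexus cells than in all other cells, where 4.43% of all 7919 measured genes were. A gene under 5 CPM in one class passes that limit only with a ratio over 4, so in this and the later lists a count over measured members is a description and no support. Against ependymal cells 18 of the 22 reached 4-fold (background 4.45%). The other 4 (Calml4, Ecrg4, Otx2 and Krt18) were also carried by ependymal cells. Enpp2, which encodes the secreted enzyme autotaxin, stood at 14050, 64.6 and 417 CPM in choroid plexus, ependymal and all other cells. The coagulation factor gene F5 stood at 333, 18.4 and 6.17 CPM, and Rdh5, a retinol dehydrogenase, at 398, 31.8 and 12.8.

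Choroid plexus transcripts were also present at a low level in cells that should lack them. A Ttr UMI was found in 98.7% of all other cells. Relative to the choroid plexus level, Ttr stood at 0.694% in a microglia class, 0.387% in an oligodendrocyte class, 0.308% in an endothelial class and 0.482% in an astrocyte class, each defined by at least 4 of 6 markers of that class and of no other. The 25 genes with the highest ratios over all other cells, named below, had medians of 0.691%, 0.416%, 0.346% and 0.649% in the same 4 classes. The control file listed no barcode under 500 UMIs, so whether these UMIs come from free RNA was not tested. Ttr and the other named genes at these percentages in another class were not read as expression. The kept cells had a median of 6612 UMIs and 1950 genes in choroid plexus cells, 12887 UMIs and 4381 genes in ependymal cells and 4603 UMIs and 1944 genes in all other cells, and mitochondrial medians of 5.45%, 5.13% and 4.85%. Among kept cells 8 barcodes were shared by both libraries, 1 of them a choroid plexus cell.

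Across the transcriptome, choroid plexus cells were compared with all other cells and with ependymal cells of the same library by summed UMIs. With 1 library there is no test, so a gene was called at a 4-fold difference, and intervals of log2 ratios (exact, conditional on the UMIs) cover counting error only. Against all other cells 351 of 7919 measured genes (4.43%) were at least 4-fold higher and 1389 (17.5%) at least 4-fold lower. Against ependymal cells 347 of 7793 genes (4.45%) were at least 4-fold higher and 1509 (19.4%) lower. The median log2 ratio of all measured genes was -0.75 against all other cells and -0.70 against ependymal cells. With Ttr taken out of the totals each ratio moved up by 0.40, the medians of the genes then measured were -0.30 and -0.23, and the calls became 524 higher and 948 lower against all other cells and 527 higher and 1202 lower against ependymal cells, so the share of calls that were higher moved to 35.6% in place of 20.2%, and to 30.5% in place of 18.7%.

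Of the 351 genes higher than in all other cells, 231 were at least 4-fold higher than in each of the microglia, oligodendrocyte, endothelial and astrocyte classes. Set against ependymal cells, 169 of the 351 were also at least 4-fold higher in choroid plexus cells, 131 were within 4-fold, and 51 were at least 4-fold lower. Over all measured genes 4.45% were at least 4-fold above ependymal cells.

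The 25 genes with the highest ratios over all other cells were ranked among those with at least 100 CPM in choroid plexus cells. Atp2b3, a plasma membrane calcium pump, had 226 CPM in choroid plexus cells, 0.525 in ependymal cells and 0.664 in all other cells (log2 ratio 8.41 over all other cells, 7.87 to 9.01). Defb11, a member of the defensin family, had 262, 0 and 0.806 CPM (log2 ratio 8.34, 7.85 to 8.88) and was at least 332-fold higher than in ependymal cells, taking the ependymal total of 0 at the floor of 3 counts. Both genes were near 0 in both other groups.

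Steap1, a metalloreductase family member, had 199, 20.5 and 0.830 CPM in choroid plexus, ependymal and all other cells. Wfdc2, a secreted protein with a protease inhibitor fold, had 336, 1.57 and 1.83 CPM, and Spint2, a membrane serine protease inhibitor, had 803, 249 and 6.64. Ace, the angiotensin-converting enzyme, had 365, 2.62 and 4.55 CPM. Prcd and Abca4, known from photoreceptor outer segments, had 163, 0.787 and 1.28 CPM and 129, 0.525 and 1.14 CPM. The other genes of this group were Tmem72, Ttr, Cldn2, Prr32, Slc16a8, Htr2c, Smim22, Slc4a5, Krt18, Cox8b, Calml4, Ecrg4, Slc13a4, Car12, Vat1l, Lbp and Col8a1, with log2 ratios over all other cells from 6.33 for Col8a1 to 7.71 for Tmem72.

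**Figure D2:**
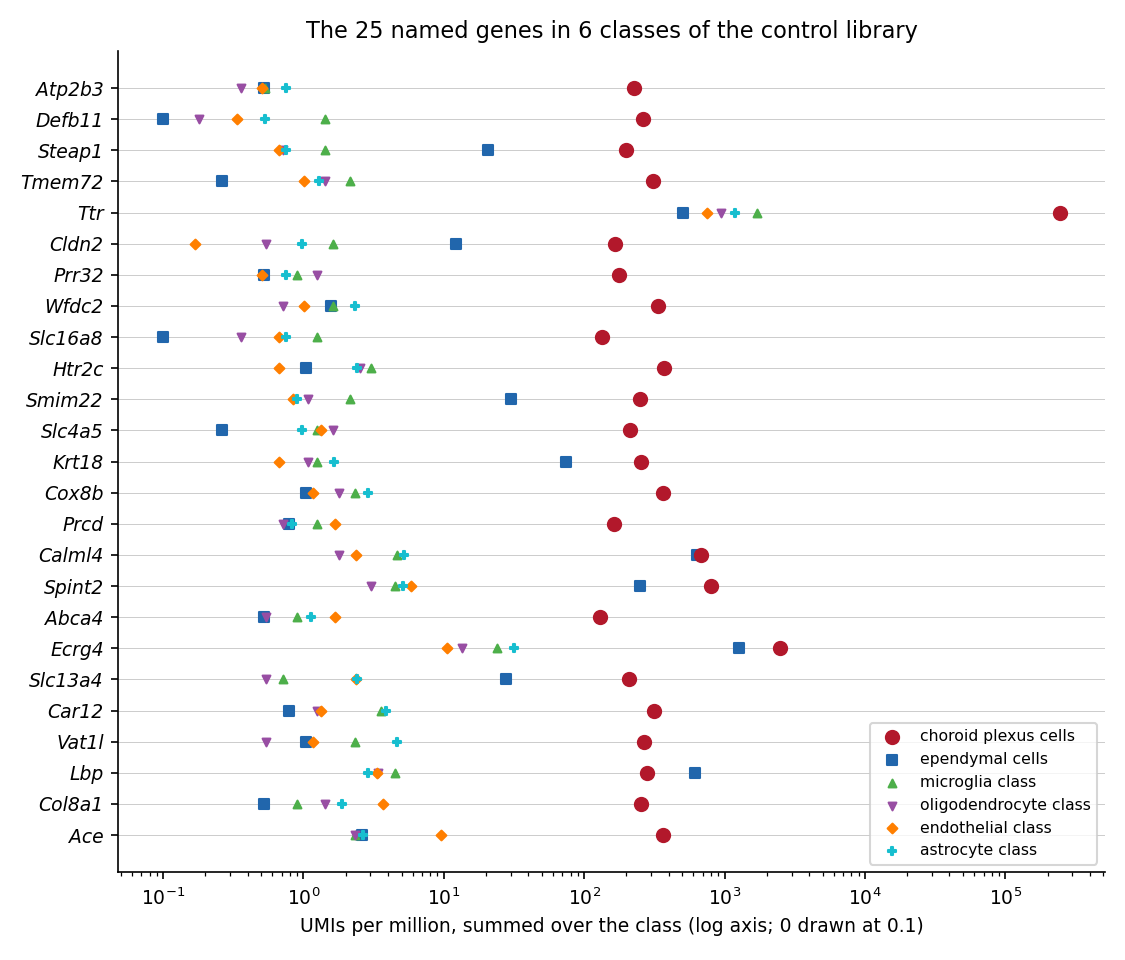
CPM (log axis) of the 25 genes with the highest ratios over all other cells, in choroid plexus cells, ependymal cells and 4 other classes of the control library; each symbol is the summed level of a class. Choroid plexus symbols lie to the right throughout except for Lbp, where ependymal cells stand at 616 CPM and choroid plexus cells at 282; Calml4 (679 and 640 CPM) and Ecrg4 (2494 and 1259 CPM) are close in both.

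Secreted carriers and growth factors were a large share of the output. Their summed level was 278104 CPM in choroid plexus cells, 16194 in ependymal cells and 31866 in all other cells, most of it Ttr. Of 21 measured members, 9 (42.9%, against 4.43% of all genes) were at least 4-fold higher than in all other cells. Lower by at least 4-fold were 3 (background 17.5%), and the median log2 ratio was 1.61. Besides Ttr, Enpp2 and Ecrg4, Igfbp2, which binds insulin-like growth factors, had 1750, 180 and 92.0 CPM in choroid plexus, ependymal and all other cells, and Igf2 itself had 422, 1.57 and 15.3 CPM. Ptgds, the prostaglandin D synthase that also carries lipophilic molecules, had 2351, 59.3 and 2136 CPM, so it marked the epithelium against ependymal cells (log2 ratio 5.31, 5.12 to 5.51) and not against all other cells. Trf, the iron carrier transferrin that oligodendrocytes also make, had 505, 76.6 and 843 CPM. Apoe and Cst3 were lower in choroid plexus than in all other cells, at 3924 against 8907 CPM and 3768 against 15747 CPM.

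Ion and water transport genes were higher in choroid plexus cells for about equal shares of the list in both comparisons: 11 of 21 measured members against all other cells (background 4.43%, median log2 ratio 2.05) and 12 of 20 against ependymal cells (background 4.45%, median 3.11). The sodium and bicarbonate carriers stood far from both groups. Slc4a5 had 213, 0.262 and 1.38 CPM in choroid plexus, ependymal and all other cells and Slc4a10 had 341, 14.7 and 7.23, while the anion exchanger Slc4a2 had 375, 81.4 and 38.2. The carbonic anhydrase Car12 had 316, 0.787 and 3.01 CPM and the water channel Aqp1 had 183, 1.05 and 5.86.

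Subunits of the sodium pump, which drives this transport, differed in their pattern. Atp1b1 had 952, 145 and 117 CPM in choroid plexus, ependymal and all other cells, and the regulator Fxyd1 had 1510, 380 and 215. Atp1b2, another subunit, had 122, 274 and 427 CPM, and Aqp4, the water channel of astrocytes and ependyma, had 29.5, 556 and 200. The cation channels Trpm3 and Trpv4 had 829, 8.40 and 86.6 CPM and 74.2, 3.67 and 4.65 CPM. The chloride cotransporter Slc12a2 and its kinase Stk39 had 478, 25.5 and 199 CPM and 348, 30.7 and 33.7 CPM.

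Solute and drug transporters were 4-fold higher for 14 of 23 measured members against ependymal cells (60.9%, background 4.45%) and for 9 of 22 against all other cells (40.9%, background 4.43%). The sulfate transporter Slc13a4 had 210, 27.8 and 1.87 CPM in choroid plexus, ependymal and all other cells. The monocarboxylate transporter Slc16a8 had 134, 0 and 0.735 CPM, the monoamine transporter Slc29a4 had 161, 0.787 and 2.61, and the ascorbate transporter Slc23a2 had 143, 27.3 and 32.7. The thyroid hormone transporter Slco1c1, also a gene of brain endothelium and astrocytes, had 424, 43.8 and 527 CPM. The copper importer Slc31a1 had 266, 27.6 and 45.8 CPM. Abcg2, Slco1a4 and Slco1c1, counted among the 14, stood at 794, 1588 and 1618 CPM in the endothelial class, and the 6 endothelial markers were also above ependymal cells (6 of 6, median log2 ratio 1.82, summed level 714 against 214 CPM). Without members carrying markers of another class the list median over ependymal cells was 2.12 in place of 2.33. The efflux pumps of the blood-brain barrier, Abcb1a and Abcg2, had 81.3, 20.7 and 340 CPM and 53.0, 11.3 and 194 CPM, and Lrp2, an endocytic receptor, had 0.809 CPM in choroid plexus cells against 128 in ependymal cells.

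Junction, keratin and polarity genes differed among themselves. Of 18 measured members 9 were at least 4-fold higher and 4 lower than in all other cells (background 4.43% and 17.5%), with a median log2 ratio of 2.87 that ran from 0.64 to 4.65 over the alternative settings. The claudins Cldn2, Cldn1 and Cldn3 had 166, 12.3 and 0.878 CPM, 65.3, 0.787 and 0.332 CPM, and 33.2, 0 and 0.664 CPM in choroid plexus, ependymal and all other cells. Cldn5, the endothelial claudin, and Cldn11, the myelin claudin, had 150, 55.1 and 861 CPM and 21.4, 9.45 and 254 CPM. The keratins Krt18 and Krt8 had 255, 74.5 and 1.66 CPM and 85.6, 66.7 and 0.854 CPM, so both were shared with ependymal cells. The polarity gene Crb3 had 57.5, 0.787 and 0.451 CPM. The collagen genes Col8a1 and Col9a3 had 252, 0.525 and 3.13 CPM and 390, 15.5 and 20.5 CPM, while the neural cadherin Cdh2 had 35.2, 145 and 180.

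Transcription factors of the lineage were mixed. Otx2, a homeobox factor needed for choroid plexus development, had 258, 88.2 and 5.60 CPM in choroid plexus, ependymal and all other cells (log2 ratio over all other cells 5.53, 5.32 to 5.73), and Msx1, another homeobox factor, had 202, 108 and 7.57. Of 10 measured members, 3 (Otx2, Msx1 and Foxj1) were at least 4-fold higher than in all other cells (background 4.43%). Lower by at least 4-fold was 1, Sox2, at 37.8 against 164 CPM (background 17.5%). The list median was -0.29 over all other cells and 0.97 with Ttr out of the totals, so it gives no direction for the list. Lmx1a, below the 20 CPM limit, had 11.9, 1.31 and 0.166 CPM.

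Because the 25 named genes were high together in these cells, promoter windows of the 7 rule genes and the 25 named genes were searched for TAATCC, the core of OTX homeodomain sites, GTAAACA, a forkhead core, and GTTGCC, a core of RFX sites, on both strands. RefSeq windows from 250 bases before to 50 after the start (GRCm38.p6) were at hand for 26 of the 32 genes. There were 25 windows for 22 named genes and 7 windows for 4 rule genes. TAATCC was in 4 of the 25 windows (16.0%) and in 0 of the 7, and 7.06% of all 32851 windows hold it. GTAAACA was in 0 of 25 and 1 of 7 windows (3.65% of all windows), and GTTGCC in 3 of 25 and 1 of 7 (12.5% of all windows). A match describes letters only. The 4 windows with a TAATCC match are shown so that its place in each can be read; binding was not measured. They are RefSeq sequences, written 5′ to 3′ on the gene's strand with TAATCC or its reverse complement in capitals, and belong to Prcd (chr11:116656858-116657157), Abca4 (chr3:122044210-122044509), Vat1l (chr8:114205390-114205689) and Ace (chr11:105967698-105967997), all on the plus strand:
Prcd: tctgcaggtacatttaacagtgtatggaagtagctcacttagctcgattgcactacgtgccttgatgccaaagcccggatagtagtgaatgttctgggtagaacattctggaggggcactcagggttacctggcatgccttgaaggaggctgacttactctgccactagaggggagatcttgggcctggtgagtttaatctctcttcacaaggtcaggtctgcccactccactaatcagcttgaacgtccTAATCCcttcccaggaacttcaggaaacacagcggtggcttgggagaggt
Abca4: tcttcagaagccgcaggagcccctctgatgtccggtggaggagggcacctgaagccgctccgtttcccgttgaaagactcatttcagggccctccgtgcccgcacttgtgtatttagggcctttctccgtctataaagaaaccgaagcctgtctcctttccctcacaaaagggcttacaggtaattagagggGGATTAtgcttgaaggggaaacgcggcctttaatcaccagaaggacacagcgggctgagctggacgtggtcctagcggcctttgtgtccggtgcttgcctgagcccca
Vat1l: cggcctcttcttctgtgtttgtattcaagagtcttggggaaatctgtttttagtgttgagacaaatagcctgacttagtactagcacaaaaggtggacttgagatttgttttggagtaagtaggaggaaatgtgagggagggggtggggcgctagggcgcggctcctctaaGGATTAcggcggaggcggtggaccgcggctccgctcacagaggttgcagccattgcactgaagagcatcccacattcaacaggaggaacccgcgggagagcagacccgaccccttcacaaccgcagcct
Ace: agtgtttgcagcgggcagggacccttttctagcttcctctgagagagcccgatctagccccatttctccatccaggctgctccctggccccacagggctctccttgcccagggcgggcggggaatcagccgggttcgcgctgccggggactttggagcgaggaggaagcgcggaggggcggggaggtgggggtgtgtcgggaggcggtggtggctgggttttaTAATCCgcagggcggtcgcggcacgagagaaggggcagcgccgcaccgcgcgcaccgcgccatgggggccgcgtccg

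Genes of brain regions were counted per cell, since choroid plexus of the lateral and of the hindbrain ventricles keeps region-specific factors. The 14 hindbrain genes (En1, En2, Gbx2 and Hox genes) gave 2 UMIs in 2 of 376 choroid plexus cells, with 12 of the 14 genes at 0, against 153 UMIs in 140 of all other cells (1.89%). The 7 forebrain genes gave 413 UMIs in 148 of the 376 cells (39.4%), against 35.8% of all other cells with a UMI. These shares were not thinned to equal depth, and the median cell had 6612 and 4603 UMIs. By summed level the forebrain list was lower, at 83.6 CPM in choroid plexus cells, 240 in ependymal cells and 183 in all other cells. Six3 had 45.7, 112 and 12.9 CPM in choroid plexus, ependymal and all other cells, and Emx1, below the 20 CPM limit, 5.26, 13.6 and 0.285. Lhx2 and Emx2 had 7.69 and 7.49 CPM in choroid plexus cells against 66.2 and 41.0 CPM in all other cells. Of 4 measured forebrain genes 3 were at least 4-fold lower than in all other cells (background 17.5%).

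Motile cilia genes had a summed level in the epithelium between those of ependymal and of all other cells. Of 32 genes outside the rule, 31 were at least 4-fold lower in choroid plexus than in ependymal cells (background 19.4%) with a median log2 ratio of -4.01. The summed level was 898 CPM in choroid plexus cells, 12545 in ependymal cells and 131 in all other cells. Per cell the list took a median of 8.34 UMIs per 10000 in choroid plexus cells, 123 in ependymal cells and 0 in all other cells.

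The list was uneven in the epithelium. Rsph1, a radial spoke head gene, had 138, 1038 and 4.06 CPM in choroid plexus, ependymal and all other cells and Dynlrb2, a dynein light chain gene, 90.6, 991 and 3.79. Mlf1, Pifo, Cfap126 and Tekt1 had 82.3, 78.7, 78.7 and 64.1 CPM in choroid plexus cells, against 502, 295, 449 and 261 CPM in ependymal cells. Foxj1, the master factor of motile cilia, had 53.2, 616 and 6.78 CPM. By contrast the axonemal genes Dnah5, Dnah12, Spag17 and Ccdc40 had 1, 1, 3 and 2 UMIs in all choroid plexus cells together, against 333, 317, 241 and 140 CPM in ependymal cells. Thinned to 1000 UMIs a cell, 15.2% of choroid plexus cells kept an Rsph1 UMI, against 62.7% of ependymal and 0.485% of all other cells, and without thinning 60.4% of choroid plexus cells had one.

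**Figure D3:**
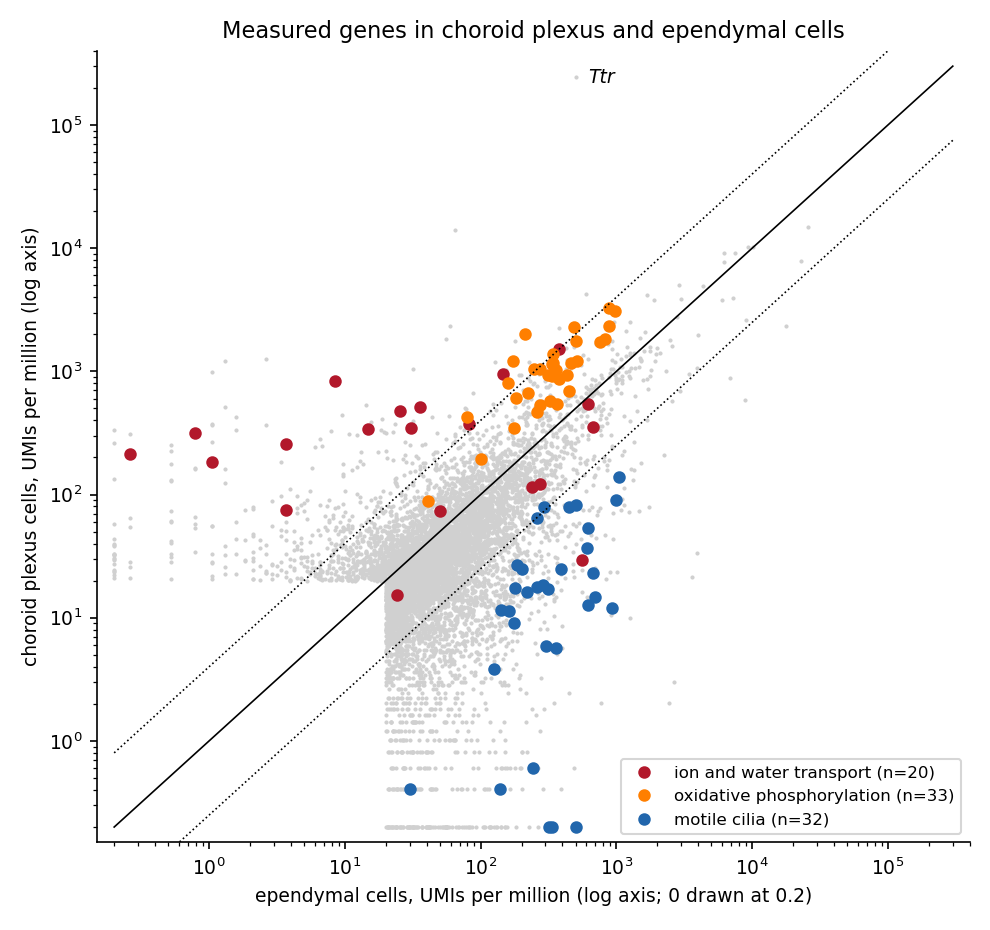
CPM in choroid plexus cells (vertical, log axis) against ependymal cells (horizontal, log axis) for 7793 measured genes; the solid line marks equality, dotted lines 4-fold, and colours mark 3 gene lists. Of the motile cilia genes 31 of 32 lie below the lower dotted line, all 33 oxidative phosphorylation genes lie above the line of equality, and 12 of 20 ion and water transport genes lie above the upper dotted line.

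The 12 highest ratios over ependymal cells among genes of at least 100 CPM were those of Tmem72, Slc4a5, Ttr, Col8a1, Atp2b3, Car12, Htr2c, Cox8b, Prr32, Defb11, Igf2 and Vat1l. Tmem72, a membrane protein gene, had 308 CPM in choroid plexus cells against 0.262 in ependymal cells, where 1 UMI was counted (log2 ratio 10.20, 7.72 to 15.50). Car12, Htr2c, Igf2 and Col8a1 had log2 ratios of 8.65, 8.47, 8.07 and 8.91. The genes far below were Cdhr4, Dnah5, Dnah12, Fam216b, Ccdc121, Calb1, Ccdc180, Cdhr3, Ppp1r32, Acot5, Slc14a2 and Lrrc71, each with 1 or 2 UMIs in the choroid plexus cells; Calb1, a calcium-binding protein gene, had 0.405 against 390 CPM.

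Genes shared by both ventricular cell types were Calml4 at 679, 640 and 5.43 CPM in choroid plexus, ependymal and all other cells, Ecrg4, a secreted peptide precursor, at 2494, 1259 and 22.2, and Lbp, the lipopolysaccharide-binding protein, at 282, 616 and 3.34. The 62 cells with both marker sets were chosen for at least 3 of the 7 rule genes. Folr1 was found in 61 of them, Clic6 in 55 and Sostdc1 in 53, against Kl in 15, Prlr in 12, Kcnj13 in 7 and Kcne2 in 7. Their median Ttr share was 0.0417% and 5 of the 62 reached 1%, against 0.0511% in ependymal cells. They were the deepest group, with a median of 35878 UMIs.

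Nuclear genes of oxidative phosphorylation, which encode most subunits of the respiratory chain, had ratios above 0 throughout. All 33 had a log2 ratio above 0 over all other cells (0.40 to 3.03, median 1.45) and over ependymal cells (0.55 to 3.26, median 1.52), although 4 and 7 of them reached 4-fold (12.1% and 21.2%, background 4.43% and 4.45%). The list summed to 38302 CPM in choroid plexus cells, 12654 in ependymal cells and 12412 in all other cells. Per cell the median was 430 UMIs per 10000 in choroid plexus cells (quartiles 315 and 562), against 126 in ependymal cells (111 and 142) and 118 in all other cells (76.4 and 154). The cytochrome oxidase subunits Cox6c and Cox8a had 3254, 877 and 844 CPM and 3103, 968 and 894 CPM. Atp5g1, a subunit of the ATP synthase ring, had 2026, 211 and 248 CPM, and Ndufa1 of complex I had 1221, 172 and 155. The kept choroid plexus cells of under 5000 UMIs had a median of 451 UMIs per 10000 from this list and those of at least 20000 UMIs had 320, against 116 and 125 in ependymal cells of the same depths. Cox8b, an isoform known from muscle and brown fat, had 366, 1.05 and 2.82 CPM and a UMI in 53.2% of choroid plexus cells.

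Iron, metal and antioxidant genes were mixed, with 3 of 26 measured members higher and 5 lower than in all other cells, shares not far from the background of 4.43% and 17.5%, and a median log2 ratio of -0.22. Steap1 and Steap2 had 199 and 185 CPM in choroid plexus cells against 0.830 and 3.30 in all other cells, and Gpx8 had 163 against 14.8. The metallothioneins Mt1 and Mt2 were low, at 588, 8779 and 3420 CPM and 73.0, 1476 and 546 CPM in choroid plexus, ependymal and all other cells, whereas Mt3 had 2588, 8932 and 1958. Hamp, the hepcidin gene, had no UMI in any of the 3 groups.

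Receptors for hormones and transmitters were dominated by Htr2c, the serotonin receptor long used to mark this epithelium, at 372, 1.05 and 2.11 CPM in choroid plexus, ependymal and all other cells. Lepr, the leptin receptor, had 64.1, 0.262 and 7.35 CPM, and Igf2r had 71.2, 48.0 and 14.3. These were the 3 of 17 measured members at least 4-fold above all other cells (background 4.43%). At least 4-fold lower was 1 of 17, Fgfr3 (background 17.5%). The list median was -0.72, close to that of all measured genes at -0.75.

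Plxnb2, the floxed gene, had 129 CPM (119 to 139) in choroid plexus cells of this heterozygous host, 250 in ependymal cells and 59.2 in all other cells. A Plxnb2 UMI was found in 43.4% of the choroid plexus cells. Among the plexins, neuropilins and semaphorins 2 of 16 measured members were at least 4-fold higher than in all other cells, the secreted ligands Sema3b (91.0, 15.7 and 1.21 CPM) and Sema3f (22.5, 1.57 and 1.09 CPM), and 7 were lower (background 4.43% and 17.5%). Sema4d and Sema4c, transmembrane ligands of Plexin-B2, had 11.1 and 3.64 CPM in choroid plexus cells against 80.7 and 15.4 CPM in all other cells.

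Immune and stress genes were compared with all other cells. Of 13 measured interferon response genes 7 were at least 4-fold lower than in all other cells (background 17.5%). Higher by at least 4-fold was 1, Ifi27, at 701 against 160 CPM (background 4.43%). With Ifi27 in it the interferon list summed to 1110 CPM in choroid plexus cells and 1009 in all other cells, and its median per cell was 10.1 and 3.44 UMIs per 10000, so sums and gene counts point in opposite directions. Isg15 and Ifit3 had 7.49 and 4.05 CPM against 42.6 and 20.8. Of 13 antigen presentation genes 7 were lower and 0 higher, with B2m at 191 CPM in choroid plexus cells against 655 in all other cells and Cd74, an MHC class II chaperone, at 26.7 against 134. Among immune trafficking and complement genes, the complement inhibitors Cd59a and Cd55 were the 2 of 11 that were higher, at 373 against 73.7 and 57.1 against 2.87 CPM. Vcam1, an adhesion receptor for leukocytes, had 178 against 80.2 CPM, and Icam1 had 3.44 against 20.8. Of 20 immediate early and stress genes 14 were lower and 0 higher, with Fos at 15.6 against 102 CPM, Jun at 81.3 against 648 and Hspa1a at 48.4 against 204. All other cells include the microglia class, where B2m stood at 1763 CPM, Fos at 345 and Jun at 2125. Against ependymal cells the antigen presentation genes had 1 of 7 higher and 0 lower, the interferon genes 1 of 6 higher and 3 lower, and the stress genes 0 of 18 higher and 3 lower (background 4.45% and 19.4%). The stress list still summed to 1867 CPM in choroid plexus cells and 8487 in ependymal cells, with medians per cell of 13.3 and 81.5 UMIs per 10000.

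**Figure D4:**
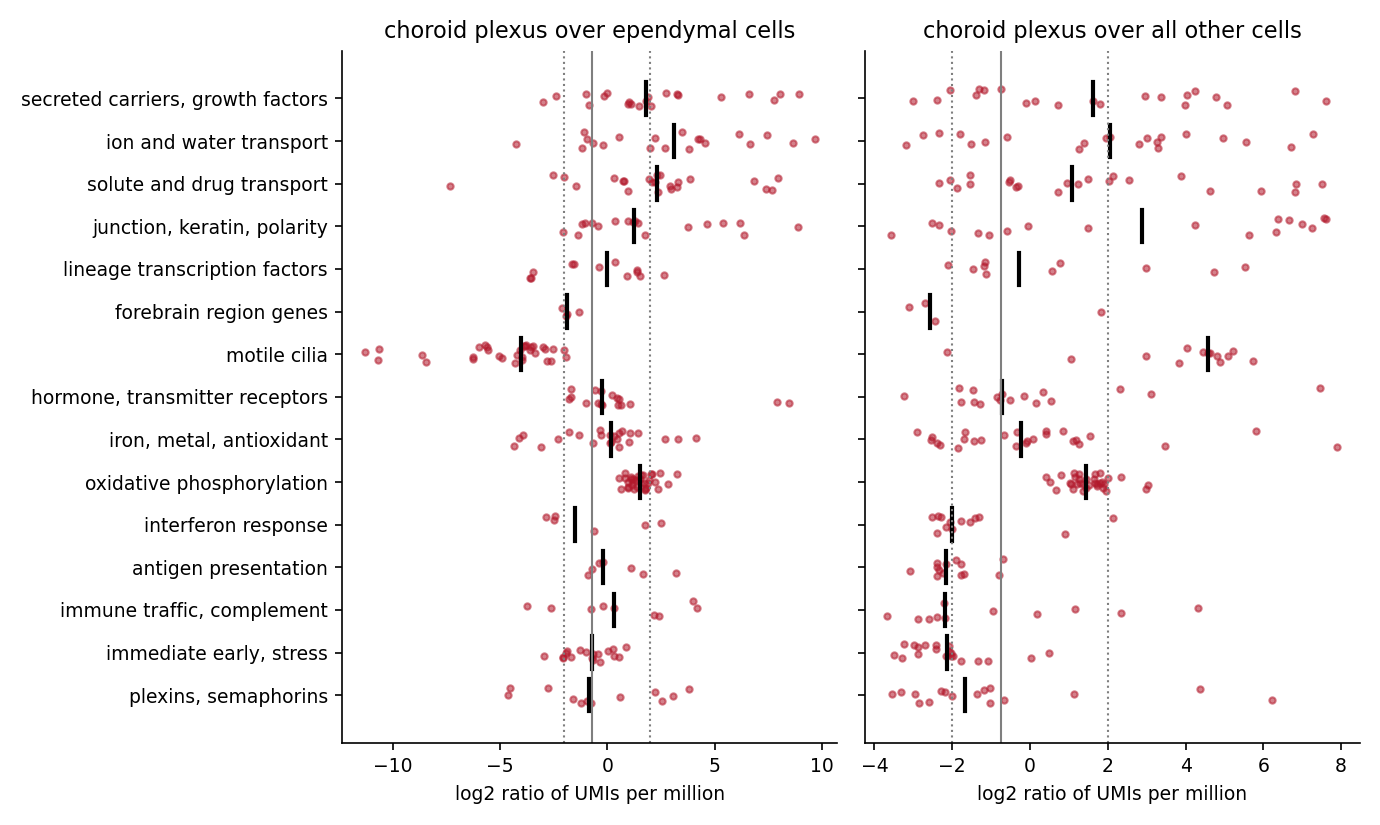
Log2 ratios of CPM for measured members of 15 gene lists, choroid plexus over ependymal cells (left) and over all other cells (right); points are genes, black bars list medians, the solid grey line the median of all measured genes (-0.70 left, -0.75 right) and dotted lines 4-fold. Oxidative phosphorylation lies above 0 in both, and 31 of 32 motile cilia genes lie beyond the lower dotted line on the left.

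The 10 genes with the lowest ratios were Npy, Ccl4, Lyz2, Rgs1, Fabp7, Itgam, Hes5, C1qb, Ccl3 and Trim9, markers of microglia, astrocytes and neurons for the most part, with Npy at 2.23 CPM in choroid plexus cells against 128 in all other cells. Malat1, a long nuclear RNA, had 7929, 22718 and 76162 CPM in choroid plexus, ependymal and all other cells (log2 ratio over all other cells -3.26, -3.28 to -3.25). Its choroid plexus level depended on cells with markers of another class. Thinned to 2000 UMIs, its mean was 16.8 UMIs in 351 choroid plexus cells and 4.59 in the 264 without such markers.

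Markers of other cell types within the choroid plexus cells were summed list by list. The 6 microglia markers summed to 262 CPM in choroid plexus cells and 3152 in all other cells, the oligodendrocyte markers to 157 and 1833, the endothelial markers to 714 and 3193, and the astrocyte markers to 709 and 6443. None of these 24 markers was at 0. Neuroblast markers summed to 32.4 and 210 CPM. Border macrophage markers summed to 7.08 and 109 CPM, fibroblast markers to 52.6 and 72.5, pericyte and smooth muscle markers to 389 and 1298, and haemoglobin and Alas2 to 3085 and 9729. In ependymal cells haemoglobin and Alas2 summed to 100 CPM, and 4 of 4 measured were at least 4-fold higher in choroid plexus cells (median log2 ratio 5.13). Pericyte and smooth muscle markers summed to 499 CPM in ependymal cells, with 2 of 5 measured higher in choroid plexus cells and 1 lower (background 4.45% and 19.4%). At least 4 of 6 markers of a class were found in 50 choroid plexus cells for astrocytes, 25 for endothelial cells, 19 for microglia and 11 for oligodendrocytes, 87 cells in all (23.1%).

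These transcripts were unevenly spread, and their part in the results above was not tested beyond the values without these cells. The 25 cells with endothelial markers held 1161 of the 1183 Flt1 UMIs (98.1%), and the 19 cells with microglia markers held 305 of 501 C1qa UMIs (60.9%). Scrublet, a doublet caller, marked 29 of the 376 cells, of which 25 were among the 87. Without the 87 cells the Ttr level was 275345 CPM, 351 genes were at least 4-fold higher than in all other cells (332 of them also in the full set) and 2076 were lower.

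Variation among the choroid plexus cells was ranked by the variance-to-mean ratio after thinning the 351 cells with at least 2000 UMIs to that depth. Among the 15 first genes were Ttr, Malat1, Tmsb4x, Cst3, Enpp2, Apoe, Flt1, Slc1a2, C1qa, Cx3cr1, Cxcl12, Ptgds and Mt1, with ratios from 103 for Ttr to 6.14 for Mt1 and a median of 1.14 over all genes ranked. Ranked again in the 264 cells without markers of another class, 7 of the first 15 genes were shared. Ttr then had a median of 539 UMIs of 2000 with 10th and 90th percentiles of 250 and 783, and Enpp2 a median of 17 with percentiles of 5 and 42.7. Cox8b had a UMI in 40.5% of these cells, Trf in 47.0% and Tmsb4x, an actin-binding peptide gene, in 43.9%. The abundant secreted genes Ttr and Enpp2 thus ranked among the first 3 genes once those cells were left out.

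Over all depths together, barcodes with the choroid plexus markers exceeded the mitochondrial limit more often than the others. Of 563 such barcodes past the UMI and gene floors 187 (33.2%, interval 29.3 to 37.3) had over 10% mitochondrial UMIs, against 10 of 219 ependymal barcodes (4.57%) and 1541 of 9024 others (17.1%), those with both marker sets included. No excess was seen from 1000 to under 5000 UMIs. There it was 39 of 178 choroid plexus barcodes (21.9%), 6 of 20 ependymal barcodes and 1306 of 5485 others (23.8%). From 5000 to under 20000 UMIs it was 50 of 225 (22.2%), 4 of 128 (3.12%) and 232 of 3340 (6.95%) in the same order. Among barcodes with at least 20000 UMIs it was 98 of 160 (61.3%), 0 of 71 and 3 of 137. In these depth ranges the others leave out barcodes that carry both marker sets. The members described here therefore lack most of the deep barcodes of this type.

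**Figure D5:**
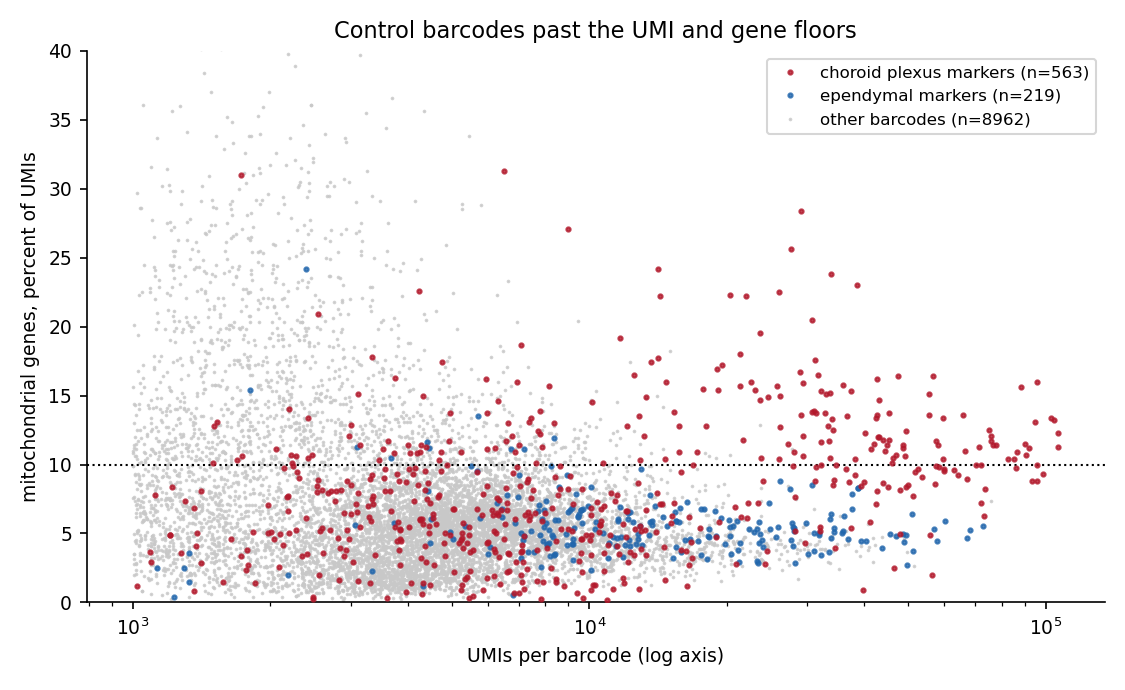
Percent of UMIs from mitochondrial genes against UMIs per barcode (log axis) for control barcodes past the UMI and gene floors, coloured by marker rule; the dotted line is the 10% limit and 14 barcodes above 40% are not drawn. Choroid plexus barcodes lie on both sides of the limit (376 under, 187 over), those over it at a median of 22080 UMIs.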

How the data were processed

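Brain cells of 1 Plexin-B2_cKO and 1 control host were profiled with 10x 3′ v3.1 chemistry, per the labels' protocols. Each deposited matrix gives unnormalized UMI counts by gene and barcode, which the authors obtained with Cell Ranger 7.1.0 on mm10, per the submitters' processing notes. The labels and notes name neither the annotation release nor whether intronic reads were counted. The control file held barcodes of at least 500 UMIs and the Plexin-B2_cKO file also very small ones.

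Cells were chosen by the marker rule given above. The members, gene lists and markers were chosen with earlier results of these data known. UMIs were summed per class and scaled to 1000000 UMIs (CPM). Genes with at least 20 CPM in either class were measured, and a 4-fold ratio was called. Intervals (95%) are exact Poisson for levels, exact Clopper-Pearson for shares and exact conditional for ratios, and cover counting error only. A total of 0 UMIs was set to 3 counts per class for ratios. Cells are not replicates and each genotype has 1 library, so no test was made. Shares across depths were also given after thinning each cell to 1000 UMIs. Doublets were called with Scrublet in scanpy 1.11.5 (423 of 8068 cells, 5.24%, at an expected 6%) and not removed. Gene positions are from GENCODE vM21, where 32235 of 32285 gene IDs matched, and promoters from a RefSeq table of GRCm38.p6. Sums and intervals came from pandas 2.3.3 with scipy 1.17.1 and numpy 2.4.6 under Python 3.11.15, and the ratio step was tested on simulated data.

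Named genes were the 25 highest and 10 lowest ratios over all other cells, the 12 highest and 12 lowest over ependymal cells (at least 100 CPM in the higher class), up to 6 members of each list by level, all region genes, Plxnb2, the label markers and the 15 most variable genes. Rule genes, mitochondrial, ribosomal, haemoglobin, immunoglobulin and predicted genes with the Y-linked Kdm5d, Eif2s3y, Ddx3y and Uty, and Tsix and Xist, did not enter the rankings. Further list members, among them Aqp4, Lrp2, Dnah5 and Cldn5, were named after their values were seen. Alternatives changed the UMI floor, mitochondrial limit, marker numbers, doublets, summary over cells, totals, depth and level filter. Results for some genes are not reported here.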

Additional observations from a re-analysis of the deposited data

Results flagged for a closer look

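Barcodes with the choroid plexus markers but over the mitochondrial limit numbered 187 in the control library, and no comparison above uses them. Their median was 22080 UMIs with 12.8% mitochondrial UMIs, 170 of them had between 10% and 20%, and 144 carried all 7 rule genes (77.0%, against 45.7% of the kept cells). Set against the 376 kept cells, with mitochondrial genes out of the totals, 1 of 5940 genes was at least 4-fold higher and 44 were at least 4-fold lower. The oxidative phosphorylation list summed to 29540 CPM over the limit and 41055 CPM in the kept cells on that scale, and Enpp2 stood at 27270 and 15060 CPM.

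The 62 cells with both marker sets lie outside both classes compared. Folr1 stood at 213 CPM, Sostdc1 at 111 CPM and Clic6 at 87.6 CPM in them, against 193, 31.8 and 34.4 CPM in ependymal cells, and Ccdc153 at 2506 CPM against 2637 CPM. These are rule genes, so their levels are partly set by how both groups were chosen.

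Barcodes of 1 to 100 UMIs, listed for the Plexin-B2_cKO library, held 6146 Ttr UMIs of 3917906 (1569 CPM, 1530 to 1608), although 3 of its kept cells were choroid plexus cells. In the other kept cells of that library Ttr had 180 UMIs (4.35 CPM). The same small barcodes held 13827 UMIs of the liver gene Alb (3529 CPM), which stood at 0.508 CPM in the other kept cells. They also held the rule genes Prlr, Clic6, Folr1 and Kl at 23.2, 10.5, 9.70 and 4.85 CPM. In the other kept cells these stood at 1.04, 1.28, 0.290 and 0.242 CPM. Enpp2 was alike in both, at 257 and 250 CPM. The source of the Ttr UMIs was not tested.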

How the results depend on the processing

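No paired analysis was possible because each genotype has 1 library and no result comes from a test. The choroid plexus share (4.66%) was 3.75% and 5.79% at mitochondrial limits of 5% and 20%, 5.60% with at least 2 of 7 genes, 3.62% without members carrying markers of another class (left out of the members only) and 5.74% with no mitochondrial limit. The Ttr level (244979 CPM) was 201343 and 252451 CPM at those 2 limits, 217427 and 251113 with at least 2 and at least 4 of 7 genes, and 242856 with no ependymal gene. It was 255082 without Scrublet calls, 275345 without members carrying other markers, 239441 as a mean over cells, 262587 without mitochondrial genes, 239968 after thinning and 250937 with no mitochondrial limit. Counts of genes moved by over 1.5 times in 10 of 62 alternatives. A similar count did not mean the same genes. After thinning, 283 of the 351 genes higher than in all other cells and 184 of the 347 higher than in ependymal cells were called again. With the mean over cells these were 292 and 256. Genes lower than in all other cells were 754 with at least 2 of 7 genes, and genes higher than in ependymal cells were 527 without Ttr. At a filter of 5 CPM the higher and lower counts were 628 and 2418 over all other cells and 591 and 2327 over ependymal cells, and at 50 CPM they were 217 and 759, and 216 and 903. Fewer or more genes are measured under those filters. The cause of the other shifts was not tested. The 59 named ratios kept their sign in 907 of 907 alternatives and their 4-fold call in 906. Medians of 30 list results kept their sign in 428 of 463, and those of 11 past 4-fold kept that call in 132 of 167. The settings with no mitochondrial limit and with the 62 double-marked cells added to ependymal cells, and the ranking of variable genes without members carrying other markers, were chosen after seeing the data. Counting error, not replicate error, is what the intervals hold.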
